A study of Homo sapiens with 21 samples.

Results

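The R232fs clones of the series carry a frameshift RUNX1 protein and wild-type RUNX1 protein in the same cells, each under its own epitope tag. They were chosen by genotype and antibody labels and comprise 4 of the 14 peak lists of the series, 2 HA lists of the frameshift protein and 2 TY1 lists of the wild-type protein, with 1 list of each tag from each of 2 clones. Lists of the same replicate number come from the same clone and were compared in pairs. All clones were grown from Jurkat cells, a long-established line of human T-cell leukaemia, were untreated, and carried their variant by knock-in. Tagged RUNX1 was precipitated from fixed chromatin with anti-HA or anti-TY1 antibody, and the DNA that came with it was sequenced. The other lists come from 2 clones of Y287X (a stop codon) and 2 of G365R (an amino acid replacement), again with HA on the mutant and TY1 on the wild-type protein, and from a WT clone, the only one of its kind, in which HA and TY1 each mark wild-type RUNX1. Of 21 samples, 7 were controls and were not analysed here. Any genotype is thus represented by at most 2 clones, and a difference between genotypes is also a difference between clones. In the R232fs clones the frameshift protein is always under HA and the wild-type protein always under TY1. Protein and antibody therefore cannot be told apart in any HA against TY1 difference of these clones.

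RUNX1 is a transcription factor of blood cell development that guides the formation of blood stem cells and the maturation of T cells. It binds DNA through its Runt domain together with the partner protein CBFB, and recruits activators and repressors of transcription mainly through the part of the protein that follows. A frameshift beyond the Runt domain alters and shortens that following part, and is known as a kind of germline change that predisposes to blood cancers.

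A peak list gives each peak a summit, a fold enrichment over local background, and −log10 p and q values. These are the authors' values and were used to describe, rank and filter peaks within a list. Library depth is not part of a list. The commonest local background, solved from fold and p and used as the nearest measure of depth, was 3.92 and 4.02 fragments in the HA lists of R232fs clones 1 and 2 and 2.83 and 3.53 in their TY1 lists. In both clones the longer list therefore also had the higher background, and the part of depth in list length was not tested. In the TY1 lists of G365R clone 1 and WT only 8.08% and 6.84% of the solved pileups were whole numbers (within 0.05 of one), whereas at least 99.99% were in each other list, so pileup and background of those lists may be on another scale. The highest summit pileups were 2904 fragments or more in every R232fs and Y287X list and 480 or fewer in every G365R and WT list. Genotype and this difference in kind of list cannot be told apart where R232fs is set against G365R or WT. No hg19 annotation was used, so regions are named by hg19 position (counted from 1) and the cell type was not checked against marker genes.

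The HA lists of the frameshift protein held more peaks than the TY1 lists of wild-type RUNX1 in the same cells. The excess was among peaks of low fold. HA lists held 77691 and 86433 peaks in clones 1 and 2, against 40112 and 59140 peaks in the TY1 lists. The mean was 82062 ± 6182 for HA and 49626 ± 13455 for TY1 (SD, n = 2 each), a geometric mean ratio of 1.68. The lists of the tags did not overlap in length, and each clone showed the same direction. At a fold of 5 or more the numbers were 18708 for HA and 18715 for TY1 in clone 1, and 18577 for HA and 22333 for TY1 in clone 2. At a fold of 10 or more, HA had fewer peaks in both clones, 4514 against 6440 for TY1 in clone 1 and 4245 against 6684 for TY1 in clone 2. At 50 or more the HA lists held 78 and 80 peaks, against 267 and 262 in the TY1 lists. Fewer peaks of fold 10 or more for HA than for TY1 were found in all 7 clones. The HA to TY1 ratio there was 0.701 and 0.635 in R232fs, 0.694 and 0.619 in Y287X, 0.414 and 0.475 in G365R and 0.546 in WT, where both tags mark wild-type RUNX1. Over all peaks the ratio was 1.94 and 1.46 in R232fs, 1.04 and 0.829 in Y287X, 0.533 and 0.495 in G365R and 0.630 in WT. In G365R and WT the HA lists were thus shorter as a whole, not only among strong peaks.

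Put as a ratio of HA to TY1 peaks, clone 1 passed through 1.90 at a fold of 2, 1.24 at 4, 0.805 at 7, 0.499 at 20 and 0.292 at 50. Clone 2 passed through 1.43, 0.965, 0.711, 0.516 and 0.305 at the same folds. The ratio was lower at each higher threshold in both clones. The clones came closer to each other up to a fold of 20, from where clone 1 was the lower. At 30 they stood at 0.412 and 0.445. Median fold over a whole list was 3.62 and 3.48 for HA and 4.75 and 4.19 for TY1. Peaks with a −log10 q of 5 or more made up 68.1% of each HA list, against 87.1% and 84.2% of the TY1 lists.

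Exact permutation of the tags over the 4 lists gave p = 0.333 for list length, the smallest that design allows, and the sign permutation over 2 clones gave 0.5, likewise the smallest. Set against the other 5 clones, the log2 ratio of HA to TY1 peaks in R232fs was 1.31 higher (2 clones at 0.95 and 0.55, the others between -1.02 and 0.06; 2-sided exact permutation p = 0.0476, the smallest of 21 arrangements). Adjusted over the 4 list measures compared in this way it was 0.0952 and did not pass 0.05. Y287X, the other truncating genotype, had ratios of 1.04 and 0.829, the WT clone 0.630, and the G365R clones 0.533 and 0.495. For peaks of fold 5 or more the difference from the other clones was 0.54 (exact permutation p = 0.143, adjusted 0.190). The falling slope of the ratio was shared with Y287X, at 0.374 and 0.414 at a fold of 50, as the plot of peaks by fold shows. In WT the ratio at 50 was 1.03, from 30 HA and 29 TY1 peaks.

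**Figure D1:**
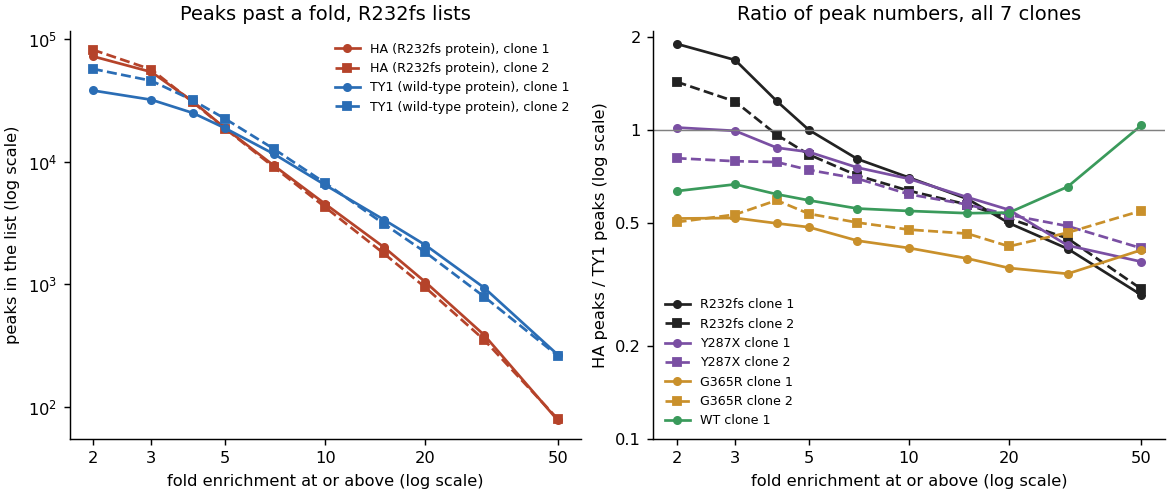
Left, number of peaks at or above a fold enrichment (both axes log) in the 2 HA and 2 TY1 lists of R232fs; right, the ratio of HA to TY1 peaks at each fold in all 7 clones, with the grey line at 1. The HA lists start above the TY1 lists and meet them near a fold of 5 in clone 1 and between 3 and 4 in clone 2. They end below them at 50, where they hold 78 and 80 peaks against 267 and 262.

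The strongest sites of the frameshift protein were nearly all sites of the wild-type protein. Peaks were ranked by −log10 p and taken in bins of 5000. In the first bin 98.5% and 98.7% of HA peaks of clones 1 and 2 fell in a region with a TY1 summit of the same clone. Of the first 5000 TY1 peaks 97.9% and 98.7% fell in a region with an HA summit. Sharing between tags was lower down the ranks, and more steeply for clone 1. Among HA peaks ranked 35001 to 40000, 33.7% in clone 1 and 68.4% in clone 2 had a TY1 summit, and at ranks 70001 to 75000 these shares were 5.78% and 17.7%. TY1 peaks ranked 35001 to 40000 had an HA summit in 59.6% and 80.3% of cases.

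The same peaks were also set against the same tag in the other clone. Of HA peaks ranked 35001 to 40000, 61.9% of clone 1 and 58.9% of clone 2 had an HA summit in the other clone. For TY1 these shares were 39.3% and 30.8%. In clone 1 a weak HA peak was thus met more often by the HA list of clone 2, at 61.9%, than by the much shorter TY1 list of its own clone, at 33.7%. In TY1 lists the order was the reverse in both clones. There the HA list of the same clone was also longer than the TY1 list of the other clone, and the part of list length was not tested.

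**Figure D2:**
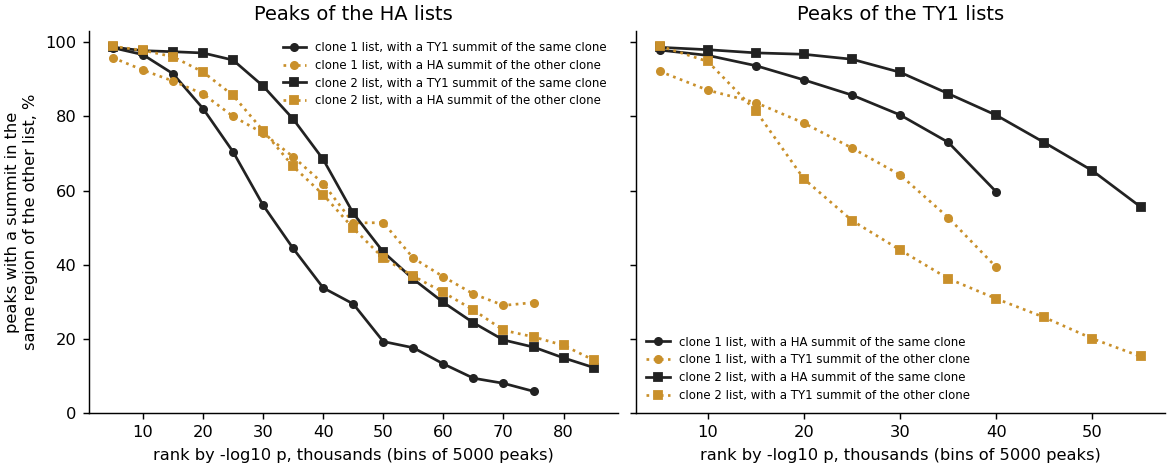
Share of peaks (%) whose region holds a summit of the other tag in the same clone (solid) or of the same tag in the other clone (dotted), by rank in bins of 5000 peaks, for the HA lists on the left and the TY1 lists on the right. All lines start above 90%; in clone 1 the HA line for sharing with TY1 ends at 5.78%.

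Summits within 100 bp windows were merged over all 14 lists into 190855 regions, of which 128588 held a summit of at least 1 R232fs list. All 4 R232fs lists shared 25541 of them, or 19.9%. Another 7601 regions, called HA-only here, had a summit in each HA list and in no TY1 list. TY1-only regions, with a summit in each TY1 list and in no HA list, numbered 516. Regions split by clone were more frequent than regions split by tag. There were 5134 regions in both lists of clone 1 and neither of clone 2, and 10272 in both lists of clone 2 and neither of clone 1, together 15406 against 8117 for the split by tag. With all 4 lists shortened to their strongest 40112 peaks, the length of the shortest, HA-only and TY1-only regions came to 1555 and 985 and the clone split to 10783. The large excess of HA-only over TY1-only regions (14.7 times) was then 1.58 times, while the excess of the clone split over the tag split grew.

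A further 12088 regions lacked a summit in the TY1 list of clone 1 alone, the shortest list, whereas 1773 lacked one in the TY1 list of clone 2 alone, 984 in the HA list of clone 1 alone and 1458 in the HA list of clone 2 alone. Within a clone, 56.3% of HA regions of clone 1 and 43.4% of clone 2 had no TY1 summit, against 15.5% and 17.3% of TY1 regions with no HA summit. Shortened to 30563 peaks, the shortest list of the series, 24.6% of either list of clone 1 and 16.8% of either list of clone 2 had no summit of the other tag. For HA regions those shares were 19.96% and 14.8% in Y287X, 28.2% and 29.4% in G365R and 26.5% in the WT clone, where no protein is mutant.

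**Figure D3:**
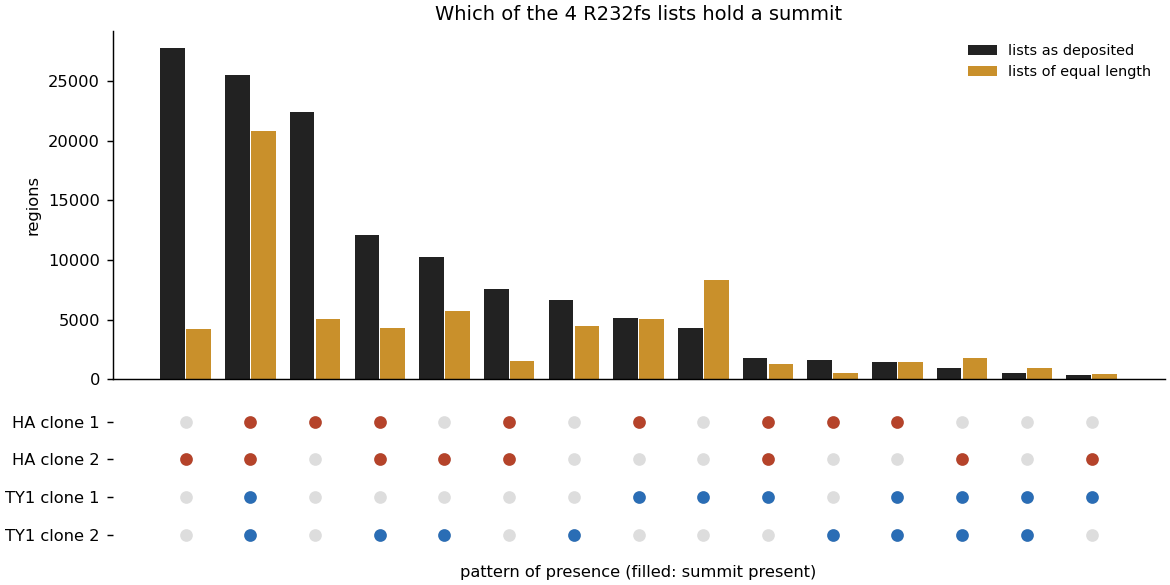
Number of regions for each pattern of presence in the 4 R232fs lists, as deposited (black) and with all 4 lists shortened to 40112 peaks (gold); filled dots mark the lists that hold a summit. Of the deposited lists 25541 regions are in all 4 and 7601 are HA-only; at equal length these bars stand at 20826 and 1555.

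At equal length, the HA and TY1 lists of a clone were more alike than lists of the same tag from different clones. The Jaccard index, the share of the joint regions that both lists hold, was 0.554 and 0.686 between tags in clones 1 and 2, against 0.536 between the HA lists and 0.454 between the TY1 lists. As deposited these were 0.404 and 0.506 between tags, 0.401 between HA lists and 0.403 between TY1 lists. HA of clone 1 and TY1 of clone 2, which share neither clone nor tag, had 0.424 as deposited, above the 0.404 of clone 1, and 0.511 at equal length. HA of clone 2 and TY1 of clone 1 had 0.293 and 0.434. Over the 25541 regions of all 4 lists the rank correlation of fold was 0.884 and 0.840 between tags of a clone, 0.789 between HA lists and 0.733 between TY1 lists. The lowest value, 0.654, was between HA of clone 1 and TY1 of clone 2. Regions share the libraries and are not independent, so these are descriptions. With 2 clones no test of clone against tag was made.

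The HA-only regions were weak in both lists that held them. Their median fold was 3.41 and 3.39 in the HA lists, and only 13 and 10 of the 7601 had a fold of 10 or more. By −log10 p their median place was the 33.9th and 36.5th percentile of those lists. TY1-only regions had a median fold of 4.31 and 4.38 in the TY1 lists, and 28 and 29 of 516 reached a fold of 10. Their median place by −log10 p was alike, at the 31.3rd and 35.3rd percentile. Regions of all 4 lists had medians of 4.75 and 5.31 for HA and 4.70 and 6.22 for TY1. In the lists as deposited, 53.1% of TY1-only regions had a summit of an HA list within 1 kb (median distance 892 bp). Of HA-only regions 15.9% had a TY1 summit within 1 kb (median distance 5347 bp). With windows of 250 bp the shares were 23.6% for TY1-only and 7.88% for HA-only regions.

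The 5 HA-only and 5 TY1-only regions of highest median fold show 2 kinds of site. In the first kind the region was met by no TY1 list and by few other HA lists. The HA-only region at chr8:61839092-61839376 had a fold of 19.8 and 31.2 in the HA lists. It held a summit in the HA lists of Y287X clone 2 (17.4) and G365R clone 1 (6.61) and in no TY1 list, and the nearest TY1 summits of R232fs clones 1 and 2 lay 733 and 645 bp from its edge. At chr1:160598789-160599045 the folds were 27.0 and 20.1, Y287X HA of clone 2 had 29.1, and the TY1 summits were 238 and 297 bp away. The region at chr2:112251978-112252192 had 10.8 and 12.6 and was otherwise met only by both Y287X HA lists, at 7.58 and 12.1.

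In the second kind most other lists, of both tags, held the region. At chr12:2365015-2365264 the HA lists had 26.0 and 7.13, and all 10 lists of the other genotypes had a summit, 5 HA and 5 TY1. The nearest R232fs TY1 summits were 3495 and 3807 bp away. The region at chr10:94875761-94876036, with 13.0 and 15.5, was likewise in all 10, and TY1 summits of R232fs lay 265 and 143 bp off. Among the 5 TY1-only regions the folds ran from 16.9 to 49.6, an HA summit of the same clone lay 198 to 662 bp away, and 3 to 5 of the 5 HA lists of the other genotypes held the region. The strongest of them, at chr1:160599143-160599484, had 49.6 and 30.4 in the TY1 lists. All 5 other TY1 lists and 4 of the 5 other HA lists had it at 20.99 to 45.4, the exception being HA of Y287X clone 2. It lies beside the HA-only region at chr1:160598789-160599045. The TY1-only region at chr8:61839921-61840236, with 24.2 and 39.0, likewise lies beside the HA-only region at chr8:61839092-61839376. Each such pair adds 1 region to each class. In both pairs HA of Y287X clone 2 had the HA-only summit and lacked the TY1-only one. HA of G365R clone 1 had both summits of the chromosome 8 pair, at 6.61 and 8.50. Whether a pair is 1 place with shifted summits was not tested.

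HA-only regions of R232fs were on average met less often in the other lists than R232fs regions at large, and TY1-only regions more often. On average over the 10 other lists 22.4% of HA-only regions held a summit, against 49.9% of TY1-only regions, 83.2% of regions of all 4 R232fs lists and 33.3% of regions in any of them. The HA lists of Y287X held 25.2% and 43.5% of HA-only regions, those of G365R 7.04% and 7.25%, and WT HA 9.84%. The TY1 lists, which are of wild-type protein, held 18.3% and 48.9% in Y287X, 20.9% and 21.7% in G365R and 20.9% in WT. Of the regions in any R232fs list, the HA lists held 34.7% and 42.7% in Y287X, 20.4% and 19.7% in G365R and 22.4% in WT, and the TY1 lists 34.7% and 48.7%, 37.4% and 36.5%, and 36.3%. The shares at HA-only regions were below these in 8 lists and level with them in both lists of Y287X clone 2. For HA-only regions, in 25.9% of cases no other list had a summit, compared with 5.62% for TY1-only regions and 33.4% for regions in any R232fs list.

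Whether the same tag difference recurs at these regions was read within each other clone, as HA without TY1 or the reverse. As deposited, the HA-only regions were HA without TY1 in 14.7% and 12.2% of cases in Y287X clones 1 and 2, and TY1 without HA in 7.68% and 17.7%. Over all R232fs regions the Y287X shares were 7.23% and 5.50% for HA without TY1 and 7.29% and 11.5% for the reverse, so HA without TY1 was the more frequent at HA-only regions in both clones, and in clone 2 the reverse was too. In G365R the HA-only regions were HA without TY1 in 1.78% and 1.46% and TY1 without HA in 15.6% and 15.9%, beside 1.28% and 1.15% and 18.3% and 17.9% over all R232fs regions. In WT these were 2.16% and 13.3%, beside 1.42% and 15.4%. The shares moved with list length. With all 14 lists shortened to 30563 peaks, the 1204 HA-only regions were HA without TY1 in 22.8% and 26.7% in Y287X and TY1 without HA in 6.06% and 5.23%. The shares over all R232fs regions were 7.72% and 6.21% for HA without TY1 and 9.76% and 7.01% for TY1 without HA. In G365R the equal-length shares were 8.97% and 8.22% HA without TY1 and 12.3% and 9.80% the reverse, beside 5.57% and 5.17% and 14.6% and 13.4% over all R232fs regions. WT had 6.89% HA without TY1 and 11.0% the reverse, beside 4.69% and 13.8%. In each of these 5 clones HA without TY1 was thus more frequent, and the reverse less frequent, than over all R232fs regions. The margin for HA without TY1 was wider in both Y287X clones than in the other 3, while that for the reverse was narrowest in Y287X clone 2.

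At the 794 TY1-only regions of equal length Y287X differed from the other genotypes. They were TY1 without HA in 30.5% and 23.4% of cases and HA without TY1 in 6.80% and 4.53%. TY1 without HA held for 13.6% and 12.7% in G365R and 13.7% in WT, no more than over all R232fs regions. HA without TY1 held there for 9.57% and 9.19% in G365R and 6.93% in WT, above the shares over all R232fs regions and about as high as at HA-only regions. In G365R and WT the higher share of HA without TY1 was thus found at the regions of either tag. Lists of R232fs share no library with those of Y287X, but belong to the same kind of list, and those of G365R and WT do not. The difference between genotypes in these shares was not tested.

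**Figure D4:**
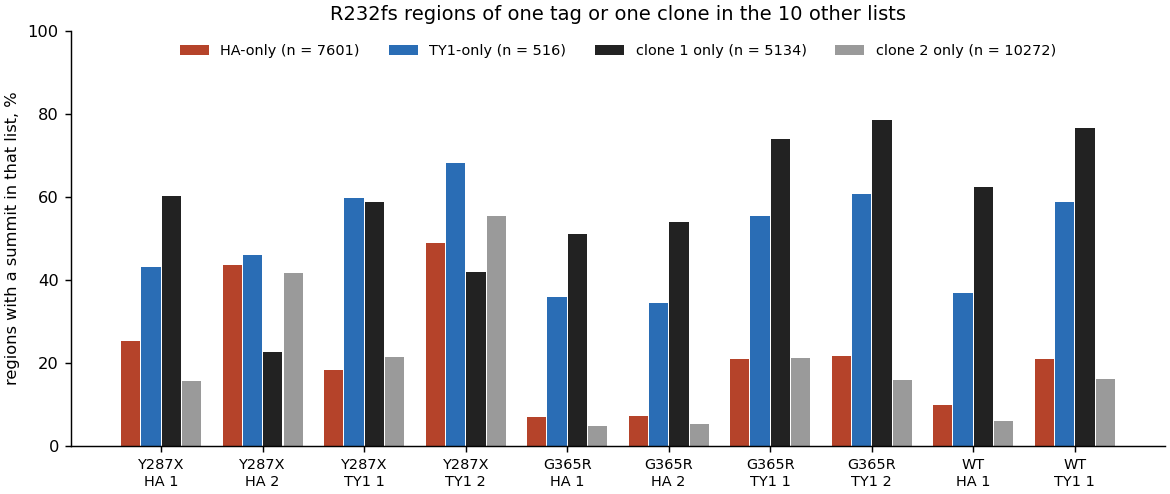
Share of R232fs regions of 1 tag or 1 clone (%) that held a summit in each of the 10 lists of the other genotypes, lists as deposited. HA-only bars reach 43.5% in HA of Y287X clone 2 and 7.04% to 9.84% in the HA lists of G365R and WT; clone 1 regions are at 62.5% and 76.7% in the WT lists and clone 2 regions at 6.02% and 16.2%.

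Regions held by both tags of 1 R232fs clone and by neither list of the other were chosen to be alike for the mutant and the wild-type protein, and are described by their levels in the other lists. The 5134 regions of clone 1 had median folds of 4.68 for HA and 5.75 for TY1, and 1103 of them reached a fold of 10 in the TY1 list. WT lists held 62.5% (HA) and 76.7% (TY1) of them, and G365R TY1 lists 74.1% and 78.7%. The 10272 regions of clone 2 were weaker, with median folds of 2.99 for HA and 3.21 for TY1, and WT lists held 6.02% and 16.2% of them. Their median local background was 12.8 fragments for HA and 12.5 for TY1, against 3.92 and 2.83 for the clone 1 regions.

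The strong clone 1 regions, absent from R232fs clone 2 by the way they were chosen, were nearly all present in each other clone but Y287X clone 2. In 367 regions of clone 1 both tags had a fold of 10 or more. WT held a summit in 98.1% (HA) and 99.7% (TY1) of these, G365R HA lists in 97.0% and 97.5%, and Y287X clone 1 in 97.8% (HA) and 96.2% (TY1). Y287X clone 2 stood apart, with 15.8% (HA) and 46.0% (TY1). In the opposite direction 46 regions of R232fs clone 2 had a fold of 10 or more under both tags. Y287X clone 2 held 78.3% (HA) and 76.1% (TY1) of those, whereas Y287X clone 1 held 39.1% and 34.8% and WT 19.6% and 21.7%. The 3 regions of highest median fold of each clone, a choice made after their values were seen, follow.

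The region at chr7:92268799-92269155 had a fold of 71.9 for HA and 115 for TY1 in clone 1. It had no summit in either list of R232fs clone 2 or Y287X clone 2, and a fold of 20.6 to 37.8 in the 8 lists of the other clones. At chr21:32505259-32505499 clone 1 had 46.4 (HA) and 117 (TY1), the same 4 lists had no summit, and the other 8 had 28.3 to 77.5. At chr2:168870119-168870408 clone 1 had 45.5 (HA) and 109 (TY1), those 8 lists had 37.4 to 66.1, and TY1 of Y287X clone 2 had a summit of 8.06 without one for HA.

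The strongest clone 2 regions were less alike over the other lists. The region at chr9:140838185-140838399 had 57.2 (HA) and 70.4 (TY1) in clone 2, and its remaining summit was in TY1 of Y287X clone 2, at 5.51. At chr1:209942873-209943117 clone 2 had 23.8 (HA) and 44.2 (TY1) and Y287X clone 2 had 38.8 and 50.1, while Y287X clone 1 (21.3) and G365R clones 1 and 2 (13.0 and 12.7) had a summit for HA and none for TY1. At chr18:74775248-74775481 it was clone 2 that had summits, at 19.4 (HA) and 24.3 (TY1), with Y287X clone 2 at 21.1 and 30.4 and G365R HA of clone 1 at 6.60 as the remaining lists. What sets these clones apart was not tested.

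Clone-specific regions were unevenly spread over chromosomes. For every 100 regions of all 4 lists there were 20.1 clone 1 regions genome-wide but 5.37 on chromosome 19 and 10.6 on chromosome 22. Clone 2 regions numbered 40.2 per 100 genome-wide, 47.9 on chromosome 19 and 55.3 on chromosome 22. HA-only regions numbered 29.8 genome-wide, with 18.99 on chromosome 19 and 20.03 on X as low values.

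HA peaks were narrower by the list but wider site by site. Median width was 422 and 418 bp in the HA lists and 485 and 476 bp in the TY1 lists, a mean difference of -60.5 bp (exact permutation of 4 lists p = 0.333, the smallest possible). With lists shortened to 40112 peaks the medians were 578 and 635 bp for HA and 485 and 595 bp for TY1, and the difference turned to 66.5 bp. At the 25541 regions of all 4 lists the HA peak was the wider in 76.9% of regions of clone 1 (medians 652 bp for HA and 522 bp for TY1). In clone 2 it was the wider in 59.7% (704 bp for HA and 666 bp for TY1). The narrower median of the deposited HA lists thus went with their long tail of weak peaks, which are narrow, with 341 and 324 bp at HA-only regions.

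At regions where each tag had exactly 1 summit, the HA and TY1 summits lay close together. Regions join summits through windows of 100 bp, so summits far apart do not enter. A small distance is therefore partly set by the matching, and the distances are best read beside each other. The median distance between HA and TY1 summits was 27 bp in clone 1 (33891 regions) and 22 bp in clone 2 (48867 regions). Between clones it was 31 bp for HA against HA and 28 bp for TY1 against TY1. Distances between tags were therefore no longer than those between clones for the same tag. The other 5 clones had 25 to 32 bp between tags, WT among them with 28 bp (R232fs minus the others -3.5 bp, exact permutation p = 0.286).

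The strength of shared sites under each tag was compared by rank. At the 11291 regions with a summit in all 14 lists, each list's folds were ranked and the ranks replaced by normal scores, so that 1 unit is 1 SD of those scores. Without clone as a term, limma called 0 regions (0.0%) for HA minus TY1 in R232fs, with 1368 at an unadjusted p under 0.05. With the clone as a replicate block, 2445 regions (21.7%) had a limma p under 0.05 after Benjamini-Hochberg adjustment. HA was higher in 1169 (10.4% of those tested) and lower in 1276 (11.3%). Of the 11291 tested, 8441 (74.8%) had the same sign in both clones, and so did all 2445 called, as a fit on both clones favours. The absolute change of called regions had a median of 0.73 units. Without R232fs clone 1 the blocked fit called 1114 regions and without clone 2 it called 374, where 3 residual degrees of freedom become 2. Of the 374, HA was higher in 117 and lower in 257. With regions of at least 10 lists it called 31 of 30542 (0.101%), 3 higher and 28 lower, so the even split of the 2445 did not hold there.

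Regions called higher had median folds of 10.1 and 10.2 in the HA lists and 6.79 and 8.17 in the TY1 lists. Those called lower had 5.36 and 5.86 for HA and 10.6 and 12.1 for TY1. Over all tested regions the medians were 6.91 and 7.30 for HA and 7.48 and 9.36 for TY1. Local background moved with direction, with medians of 8.39 and 9.76 fragments in the HA lists at higher regions and 13.4 and 15.5 at lower regions, beside 12.0 and 13.7 at all tested regions. Its part in the result was not tested. Calls occurred at every strength. Of the 2259 regions lowest in mean rank 6.77% were higher and 10.2% lower for HA, and of the 2258 highest 12.7% and 11.5%. By chromosome the share lower ran from 8.60% on chromosome 7 to 16.1% on chromosome 9, and the share higher from 7.93% on chromosome 14 to 14.02% on chromosome 21.

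Among the called regions the largest change below wild-type RUNX1 was at chr6:6702886-6703137. Fold there was 3.69 and 2.80 in the HA lists and 12.6 and 12.0 in the TY1 lists, and summit pileup was 106 and 90 fragments for HA and 359 and 385 for TY1. The groups did not overlap, and the change was -2.12 ± 0.25 units (SE, limma adjusted p = 0.00553 with the block and 0.205 without). In Y287X the region had 3.36 and 4.94 for HA against 12.7 and 12.4 for TY1, and in WT 2.17 against 3.56. At chr18:21292194-21292702 the HA lists had 10.9 and 2.40 and the TY1 lists 38.8 and 11.5, lower for HA in both clones, with HA of clone 1 close to TY1 of clone 2 (-2.02 ± 0.33, limma adjusted p = 0.00826 with the block and 0.372 without). WT had 19.2 for HA and 20.98 for TY1 there.

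Not every large change in fold was a large change in pileup. At chr1:198799557-198800217 fold was 1.81 and 2.11 for HA and 3.92 and 5.19 for TY1 (-1.92 ± 0.52, limma adjusted p = 0.0336 with the block and 0.282 without). The summit pileup there was 48 and 58 fragments for HA and 48 and 65 for TY1, so that the fold difference came with unequal background. At chr3:4846075-4846662 fold was 2.34 and 5.10 for HA and 9.31 and 15.2 for TY1 (-1.97 ± 0.28). Y287X did not share that difference, with 10.5 and 8.93 for HA and 13.0 and 8.69 for TY1.

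The 5 largest changes above wild-type RUNX1 had HA folds of 2.82 to 10.3 and TY1 folds of 1.60 to 6.60. Low TY1 values follow in part from choosing the largest changes. At chr6:7389947-7390454 fold was 4.40 and 6.94 for HA and 2.04 and 3.64 for TY1 (1.83 ± 0.29 units, limma adjusted p = 0.00813 with the block and 0.205 without). At chr17:77277070-77277596 it was 8.24 and 10.3 for HA and 2.42 and 6.60 for TY1, with pileups of 64 and 73 fragments against 27 and 46 (1.77 ± 0.25). At chr11:72379654-72380041 it was 8.30 and 5.81 for HA and 3.46 and 3.16 for TY1 (1.65 ± 0.18, limma adjusted p = 0.00479 with the block and 0.208 without). The last region went the other way in G365R, with 2.58 and 2.29 for HA and 6.39 and 6.65 for TY1.

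The 5 shared sites of highest mean rank had folds of 61.8 to 215 in the R232fs lists. At chr2:11093894-11094212 fold was 174 and 179 for HA and 169 and 199 for TY1, and at chr1:145129837-145130116 it was 106 and 178 for HA and 131 and 195 for TY1. Neither differed past the threshold (limma adjusted p = 0.101 and 0.193 with the block). At chr11:36706501-36706771 the HA lists had 81.5 and 61.8, below 201 and 142 in the TY1 lists (-0.47 ± 0.12, limma adjusted p = 0.0262 with the block and 0.536 without). At chr19:33237346-33237768 the score was 0.56 ± 0.07 higher for HA (limma adjusted p = 0.00589 with the block and 0.283 without). Fold itself was 115 and 107 for HA and 146 and 106 for TY1, so that there the rank and the fold differed in direction in clone 1.

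The relative changes of R232fs recurred in direction in both Y287X clones. Of the 1169 regions higher for HA in R232fs, 91.6% and 85.8% were higher for HA in Y287X clones 1 and 2, with median differences of 0.38 and 0.30 units beside 0.69 and 0.71 in the R232fs clones. Of the 1276 lower regions 86.0% and 85.4% were lower in Y287X, with medians of -0.36 and -0.30. G365R and WT did not follow, with 37.0%, 40.0% and 38.6% of the higher regions higher in G365R clones 1 and 2 and WT, and 38.9%, 44.2% and 40.4% of the lower regions lower. Over all tested regions each clone had between 49.4% and 51.5% higher for HA.

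**Figure D5:**
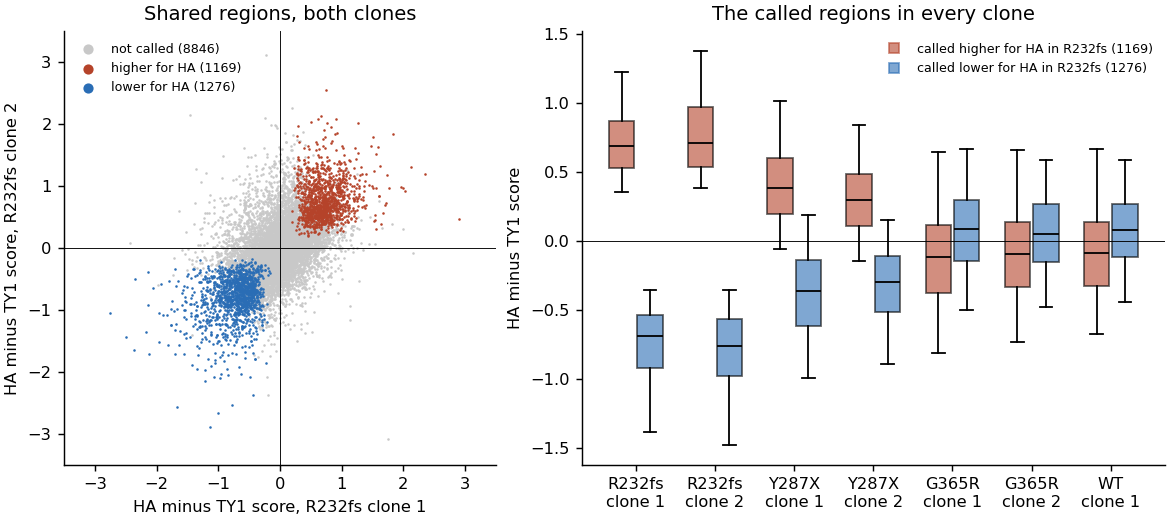
Left, HA minus TY1 score of R232fs clone 1 against clone 2 at 11291 regions, with the 2445 regions called by the blocked fit in colour; right, the same called regions in all 7 clones (line median, box quartiles, whiskers 5th to 95th percentile). Medians in Y287X lie on the same side of 0 as in R232fs at less than their size; those of G365R and WT lie within 0.12 units of 0 on the other side.

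The difference between genotypes was tested in the same fit. Between R232fs and Y287X limma called 0 of 11291 regions (0.0%) with and without the block, with 1244 and 121 at an unadjusted p under 0.05. R232fs minus G365R gave 1862 regions (16.5%) with the block, 916 (8.11%) with a higher and 946 (8.38%) with a lower HA minus TY1 difference, and 0 (0.0%) without it (1129 unadjusted). R232fs minus WT gave 346 regions (3.06%) with the block, 162 (1.43%) higher and 184 (1.63%) lower, and 0 (0.0%) without it (614 unadjusted). The count against G365R was 59 and 286 without G365R clones 1 and 2. That against WT was 0 without R232fs clone 2, without Y287X clone 1 or without either G365R clone, and 2 without Y287X clone 2, and it rests on a single WT clone. With regions of at least 10 lists the blocked fit called 0 of 30542 (0.0%) against G365R and 0 (0.0%) against WT, with 8169 and 5167 at an unadjusted p under 0.05.

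In the R232fs lists taken alone, more sites could be compared. Over the 25541 regions of all 4 lists, limma with the block called 1118 (4.38%), 542 (2.12%) higher and 576 (2.26%) lower for HA, and 0 (0.0%) without it. Of these 401 lay outside the regions of all 14 lists. Among the 717 inside, 711 were also called in the fit of all lists in the same direction and 0 in the opposite one. That fit has 1 residual degree of freedom and shares its lists with the other, so it is no independent support.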

How the data were processed

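Single-library narrowPeak lists were deposited. The genome build was hg19 and the tools named are MACS2 2.2.7.1, Bowtie2 2.2.9 and CASAVA 1.8, per the submitters' processing notes. Caller settings and control libraries: not given in the sources used here. Each deposited peak has a score (not used further), a fold enrichment (ratio), −log10 p and q values and a summit offset, all per list. Library depth was not analysed here. Summit pileup and local background were solved from fold and p, assuming Poisson tails and 1 added to both.

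Only chromosomes 1 to 22 and X were kept, and 1.41% to 1.79% of the R232fs peaks lay elsewhere. Windows of 100 bp on each side of summits of all 14 lists were merged where they shared 1 bp or more. Equal-length lists took the peaks of highest −log10 p. List measures were compared by 2-sided exact permutation. Scores of shared regions were compared with limma 3.58.1 (trend, Benjamini-Hochberg) in R 4.3.3, in 1 fit of all lists with genotype and tag as groups, without clone and with clone as a block. The fit was tested on simulated data, where without the block it missed most of the shifts put in. With the block it missed most of the smaller ones, among them shifts above the median change of the called regions. A count of 0 is therefore no sign that scores were equal. Other steps used Python 3.11.15, numpy 2.4.6, pandas 2.3.3, scipy 1.17.1 and matplotlib 3.10.9.

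Clone names in the list headers give HA and TY1 lists of the same number the same clone, and their deviations from group means correlated with r = 0.792 over 11291 regions, so the numbers pair the samples. Limma p-values without the block set a difference against the spread between clones of the same genotype and tag, pooled over the genotypes fitted. With the block they set it against the variation of the HA minus TY1 difference between clones of the same genotype, likewise pooled. Exact permutation p-values measure no such spread and can be no smaller than the number of arrangements allows. All of these p-values rest on these clones alone. Regions named are the 5 HA-only and 5 TY1-only of highest median fold, the 5 largest changes in each direction past the threshold in the blocked fit with the same sign in both clones, and the 5 shared regions of highest mean rank. The members and lists were chosen with earlier results of these data known. Alternatives were other ranks, region sets, windows and list lengths, a −log10 q of 5 or more, and leaving out each clone. A planned motif and annotation search was not run, since no hg19 sequence was used here.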

Additional observations from a re-analysis of the deposited data

Results flagged for a closer look

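In 4 results the HA against TY1 contrast of R232fs was set apart from that of other genotypes by an unadjusted or a blocked test. The log2 ratio of HA to TY1 peak numbers was 1.31 higher in the R232fs clones than in the other 5 clones, and the median width difference was -38.5 bp relative to them. Both gave the smallest exact permutation p of 21 arrangements, 0.0476, and 0.0952 after adjustment over 4 comparisons, which does not pass 0.05. The width result turned with lists of equal length, to 159.7 bp. With clone as a block, limma found 1862 regions in which the HA minus TY1 difference of R232fs departed from that of G365R, and 346 in which it departed from that of WT. Without the block it found 0 in both, with 1129 and 614 at an unadjusted p under 0.05. With regions of at least 10 lists the blocked fit also found 0 in both. Against Y287X it found 0 with and without the block, with 1244 and 121 at an unadjusted p under 0.05. Commonest background was 3.92 and 4.02 for HA and 2.83 and 3.53 for TY1 in the R232fs clones, and 3.22 for HA and 4.54 for TY1 in G365R clone 2, and its part in these differences was not tested. The TY1 lists of G365R clone 1 and WT may be on another scale of background and were not set beside them.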

How the results depend on the processing

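Of 172 recomputed values 63 were counted as moved, beyond the spread between clones or by over 1.5 times, and 1 reversed. Peak number, peaks of fold 5 or more and median width were not counted as moved where they kept their direction, however large the shift. The log2 peak ratio went from 0.75 to 0.42 with a −log10 q of 5 or more. For strong peaks the log2 ratio went from -0.13 at a fold of 5 or more to -0.58 at 10 or more. The reversed value was the difference in median width, 66.5 bp with lists of equal length. With a −log10 q of 5 or more that difference was -1.0 bp, with 5 bp in clone 1 and -7 bp in clone 2. Without either clone the log2 peak ratio kept its direction (0.55 to 0.95). For peaks of fold 5 or more the log2 ratio was -0.27 without clone 1 but -0.0005 without clone 2, close to equal numbers. The summit distance was 20.5 bp at equal length.

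HA-only regions numbered 1555 and 1204 with lists of 40112 and 30563 peaks and 3685 with a −log10 q of 5 or more. Within single clones they were 37532 to 43764. TY1-only regions numbered 985 and 794 at those lengths, 343 with windows of 250 bp, 256 with whole peaks merged, and 6202 to 10247 within single clones. The log2 ratio of HA-only to TY1-only regions, 3.88 as deposited, was 0.66 and 0.60 at those lengths, 2.67 with a −log10 q of 5 or more, 4.89 with whole peaks merged, and 1.87 to 2.82 within single clones.

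For HA minus TY1 in R232fs the fit without the block called 10 regions with ranks of −log10 p, 317 with ranks of summit pileup and 17 with regions of at least 10 lists, where ranks of fold gave 0. With the replicate block, which pairs lists by clone, ranks of fold gave 2445, ranks of −log10 p 2511, ranks of pileup 3100, regions of at least 10 lists 31, R232fs lists alone 1118, R232fs and Y287X lists alone 1808, windows of 250 bp 2090, and leaving out single clones 374 to 2145 (1114 and 374 without R232fs clones 1 and 2, 2145 and 2131 without those of Y287X, 1868 and 1887 without those of G365R).

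R232fs minus G365R without the block gave 97 (−log10 p), 866 (pileup) and 1 (at least 10 lists). With the replicate block it gave 1862, 3093 (−log10 p), 3633 (pileup), 0 (at least 10 lists), 1575 (250 bp) and 59 to 1584 without single clones (1229 and 627 without R232fs clones 1 and 2, 1584 and 1549 without those of Y287X, 59 and 286 without those of G365R). R232fs minus WT gave 418 (pileup) without the block. With the replicate block it gave 346, 2010 (−log10 p), 3123 (pileup), 0 (at least 10 lists), 36 (250 bp) and 0 to 204 without single clones (204 without R232fs clone 1, 2 without Y287X clone 2, 0 without each other clone left out). R232fs minus Y287X gave 0 in all these fits. The cause of these changes was not tested.

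Leaving out a clone leaves its genotype with 1 list per tag, assumed to vary like the others. Library depth is unknown, so a missing summit is no sign of absent binding. The WT arm is 1 clone. The alternatives added after seeing the data were those leaving out Y287X or G365R clones and further settings of the genotype differences.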
